A study of Homo sapiens with 6 samples.

Results

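RPMI8226 is an established line of malignant plasma cells from multiple myeloma, and its transcript levels were set against those of KMS11 and U266, established myeloma lines from other donors. The RPMI8226 arrays were those whose title names that line, 2 of the 6 arrays in the series, and the other 4 came from KMS11 and U266. All cells were grown in RPMI1640 medium with fetal bovine serum and transfected with HiPerFect, so no array shows untreated cells. In each line 1 culture received 100 nM of a scrambled control (Negative Control 1) and 1 received 100 nM of a miR-10a mimic, and cells were taken 48 hours later. Total RNA was hybridised to arrays of the Affymetrix Human Gene 2.0 ST type, which read whole transcripts. The value of a gene is its log2 expression value, so that a difference of 1 is 2-fold.

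Plasma cells are the antibody-secreting end stage of the B lineage, and they shut down most genes of the mature B cell while the transcription factors IRF4 and XBP1 sustain survival and secretion. Myeloma lines differ in the chromosomal rearrangement that started the tumour. Rearrangements known in RPMI8226 and KMS11 activate MAF, a transcription factor of the basic leucine zipper class, whereas the one known in U266 activates cyclin D1. Myeloma cells also differ in the chemokines, adhesion molecules and innate immune receptors through which they exchange signals with the bone marrow.

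RPMI8226 was compared with each other line at equal treatment, with the treatment as a term in limma. A gene was called where it differed by at least 2-fold from both KMS11 and U266, in the same direction, with a Benjamini-Hochberg adjusted p under 0.05 against each. The error of a difference starts from that between the 2 arrays of each line once the treatment effect shared by the lines is removed. In limma it is then drawn towards a value estimated over all genes, with 4.12 prior degrees of freedom against 2 residual ones. These p-values measure only the spread between these arrays, which may be technical, and not a spread between repeated cultures. Over 14884 named genes, the 95% confidence interval of a difference had a median half-width of 0.28 log2 units. The 2 RPMI8226 arrays correlated at 0.994 across genes, against 0.918 to 0.921 with KMS11 and 0.90 to 0.905 with U266 at equal treatment, and genes are not independent replicates. Array medians lay between 3.61 and 3.66.

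The line had the plasma cell markers that the label implies. Of 7 such markers on the array, 6 lay above the median level of all named genes (4.70) in both RPMI8226 arrays, among them IRF4 at 10.52 and 10.55 and XBP1 at 9.34 and 9.34 in the control and mimic arrays. The exception was SLAMF7, a surface receptor of plasma cells, at 3.33 and 3.79, and it was also low in KMS11, at 3.47 and 3.27. Of 5 mature B cell markers 0 exceeded that median in both arrays, although CR2, a complement receptor gene, stood at 4.71 and 4.51. Of 5 T and NK cell markers and of 3 stromal and endothelial markers 0 exceeded it too. Of 9 myeloid markers 1 did, SPI1, a transcription factor gene shared with B cells, at 5.58 and 5.83. Of 4 markers of megakaryocytes and erythroid cells 2 did, and of 4 epithelial markers 3 did, KRT18 and EPCAM, which were also higher than in both other lines, and KRT8, at 5.94 and 5.67. The mean of the epithelial markers was 7.19 and 6.94 in RPMI8226, 5.90 and 5.96 in KMS11 and 5.19 and 5.43 in U266. Such placements rest on probe response as well as on RNA and are descriptions, and the locus that the KRT18 probe set reads is uncertain. The 6 genes used as signature markers of the line (CXCL10, FN1, LTF, PLEK, LY86 and MAF) were all highest in RPMI8226, but they were chosen with these results known.

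RPMI8226 stood above both lines in 424 of 14884 genes, or 2.85%, and below both in 460, or 3.09%. Against KMS11 alone, 768 genes were higher (5.16%) and 1157 lower (7.77%), and against U266 alone 973 were higher (6.54%) and 1156 lower (7.77%). Both contrasts use the same RPMI8226 arrays. Of the higher genes, 131 were at least 4-fold above the nearer line and 27 at least 16-fold, and of the lower genes 108 and 12 were that far below it. In each of the 4 comparisons at equal treatment, 354 of the higher and 375 of the lower genes were at least 2-fold apart. Without regard to size, both RPMI8226 arrays exceeded all 4 others in 2970 genes (20%) and lay below them in 2846 (19.1%). For 78 genes RPMI8226 lay between the other lines, at least 2-fold from each. Of the higher genes, 191 lay under the median level of named genes in all 4 other arrays, and of the lower genes 174 did so in both RPMI8226 arrays. The table has no detection calls, so such low values may be background and a fold change against them may be compressed.

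**Figure D1:**
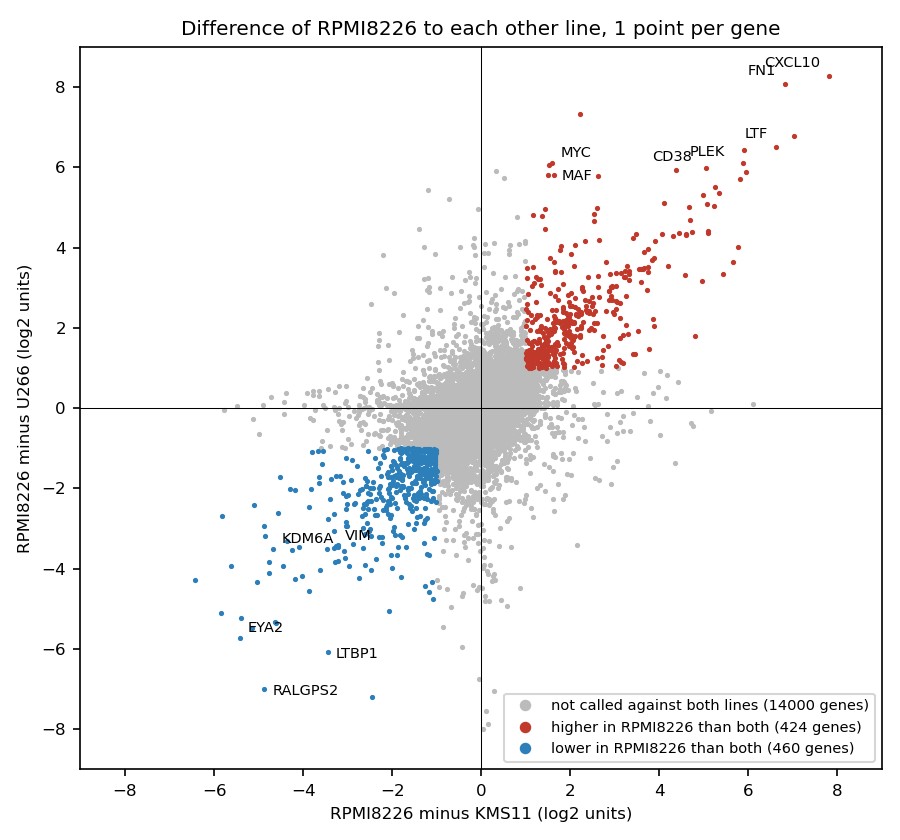
Difference of RPMI8226 to KMS11 (horizontal axis) and to U266 (vertical axis) in log2 units, from the fit with treatment as a term, with 1 point for each of 14884 genes. The 424 genes called higher than both lines (red) lie at the upper right with CXCL10 and FN1 farthest out, and the 460 called lower (blue) lie at the lower left. MAF and MYC lie far from U266 but close to the 2-fold limit against KMS11.

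CXCL10, FN1 and LTF had the widest gaps above both lines among protein-coding genes. CXCL10, a chemokine that attracts activated T cells, had values of 10.61 (control array) and 10.61 (mimic array) in RPMI8226, 2.83 and 2.78 in KMS11, and 2.50 and 2.15 in U266. Pairs of values below keep this order of control and mimic. CXCL10 had equal values in both RPMI8226 arrays and lay near the bottom of the scale in the others. It was 224-fold above the nearer line, with a difference to KMS11 of 7.80 ± 0.30 (95% confidence interval) and limma's adjusted p = 2.26e-06. FN1, encoding the matrix protein fibronectin, reached 12.84 and 12.81 in RPMI8226 against 5.97 and 6.05 in KMS11 and 4.69 and 4.78 in U266, or 112-fold above KMS11. LTF, which encodes the iron-binding protein lactoferrin of neutrophil granules and secretions, stood at 9.70 and 9.56 against 2.97 to 3.21 in the 4 other arrays. In these 3 genes both RPMI8226 arrays lay far above all 4 others, while for LTF the values of KMS11 and U266 overlapped.

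PLEK, encoding pleckstrin, a kinase substrate of platelets and leukocytes, stood at 11.11 and 11.12 in RPMI8226, 5.20 and 5.23 in KMS11, and 4.59 and 4.76 in U266. LY86, whose product MD-1 forms a surface complex with the receptor CD180, stood at 9.74 and 9.66 against 3.57 to 3.86 in the other arrays. CD38, the ectoenzyme targeted by therapeutic antibodies in myeloma, stood at 9.99 and 9.90 against 4.88 and 4.92 in KMS11 and 4.11 and 3.80 in U266, or 33.1-fold above KMS11. Among the 15 protein-coding genes with the widest gap were also CXCL8 and CCL2, which are chemokines, GPX7, a peroxidase of the endoplasmic reticulum, LCP2, an adaptor of immune receptor signalling, CD37, a tetraspanin of B cells, and CD177, a surface protein of neutrophils. LRRC26, a subunit of potassium channels, ADGRG1, an adhesion receptor, and NETO1, an auxiliary protein of glutamate receptors, completed the list. The fold to the nearer line ran from 20.8 for CD37 to 224 for CXCL10. Because the 15 were picked by the width of their gap, their lack of overlap with the other arrays follows from the choice.

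On the lower side EYA2, a transcriptional coactivator with phosphatase activity, came first. It stood at 4.14 and 4.39 in RPMI8226, 9.74 and 9.64 in KMS11 and 9.99 and 10.00 in U266. Its difference to KMS11 was -5.42 ± 0.29 (adjusted p = 3.29e-06 in limma). RALGPS2, an exchange factor for Ral GTPases, stood at 2.65 and 2.80 against 7.65 and 7.53 in KMS11 and 9.68 and 9.77 in U266. CCDC88A, encoding the actin-binding protein girdin, was at 3.63 and 3.54 against 8.60 to 9.13 in the other arrays. RALGPS2 sat near the bottom of the scale in RPMI8226, and CCDC88A sat below the median level of named genes. In each gene both other lines were at least 29.2-fold above.

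The 15 lowest protein-coding genes also included PLS3, which bundles actin, NCKAP1, a subunit of the WAVE complex, SYT11, a synaptotagmin of vesicle membranes, and LAPTM4B, a lysosomal membrane protein. LAPTM4B stood at 2.43 in the control and 3.75 in the mimic array of RPMI8226, the widest gap between these arrays among the 15, against 8.32 to 8.54 elsewhere. The others were CLGN, a chaperone of the endoplasmic reticulum, RNF157, a ubiquitin ligase, ALPK2, an alpha-kinase, UCHL1, a deubiquitinase, FGF2, a growth factor, XYLT1, which starts glycosaminoglycan chains, CYB5A, a cytochrome, and C8orf88. Over all 884 called genes, 60 differed by over 0.5 log2 units between the RPMI8226 arrays and 3 by over 1. The median absolute difference was 0.155 in the called genes and 0.122 in all genes.

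**Figure D2:**
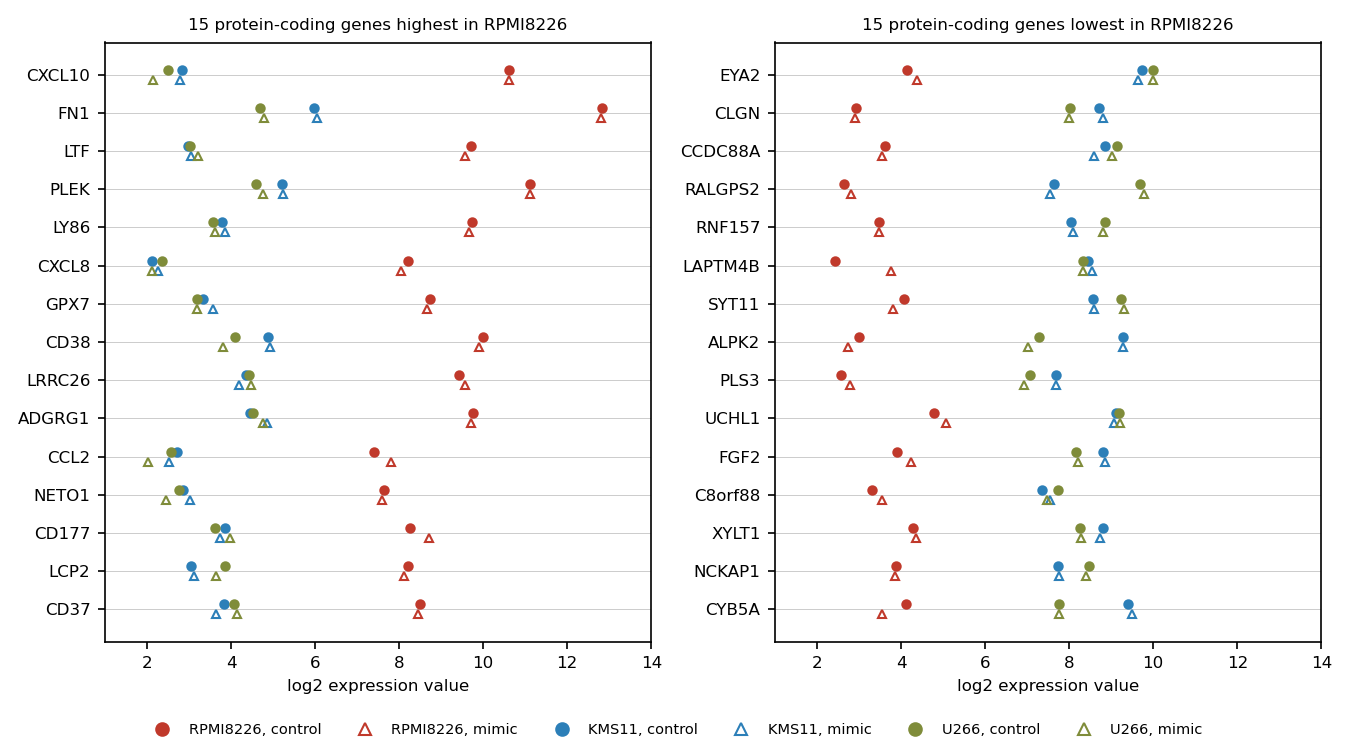
Log2 expression values in the 6 arrays for the 15 protein-coding genes with the widest gap above both lines (left) and below both (right), by line (colour) and treatment (filled circle, control; open triangle, mimic). On the left the RPMI8226 points lie to the right of all other points in every row, from CXCL10 at 10.61 and 10.61 down to CD37 at 8.50 and 8.45, and on the right they lie to the left in every row, with a visible gap between control and mimic in LAPTM4B (2.43 and 3.75).

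Gene lists written from textbook knowledge gave a count for each pathway. The 44 lists held 802 different genes on the array, and a list's share of calls is read against 2.85% higher and 3.09% lower among all named genes. Among lists with at least 10 genes on the array, the higher shares were widest in the MAF programme (5 of 12 genes) and among Toll-like receptors and their partners (9 of 23). Among the same lists, the lower share was widest for cell cycle and mitosis, where 13 of 27 genes were lower than in both lines and 0 higher. Apoptosis regulators (0 of 21), subunits of the respiratory chain (0 of 14) and ribosomal proteins (0 of 19) had no call in either direction at 2-fold in limma, and at 1.5-fold the apoptosis list had 3 higher and 4 lower. The lists were drawn up with earlier results known, and no list was tested as a set. Some counts include signature markers of the line, which were chosen as high in it. Examples are MAF in the MAF programme, LY86 among the Toll-like receptors and partners, and LTF, PLEK and LY86 among myeloid genes.

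**Figure D3:**
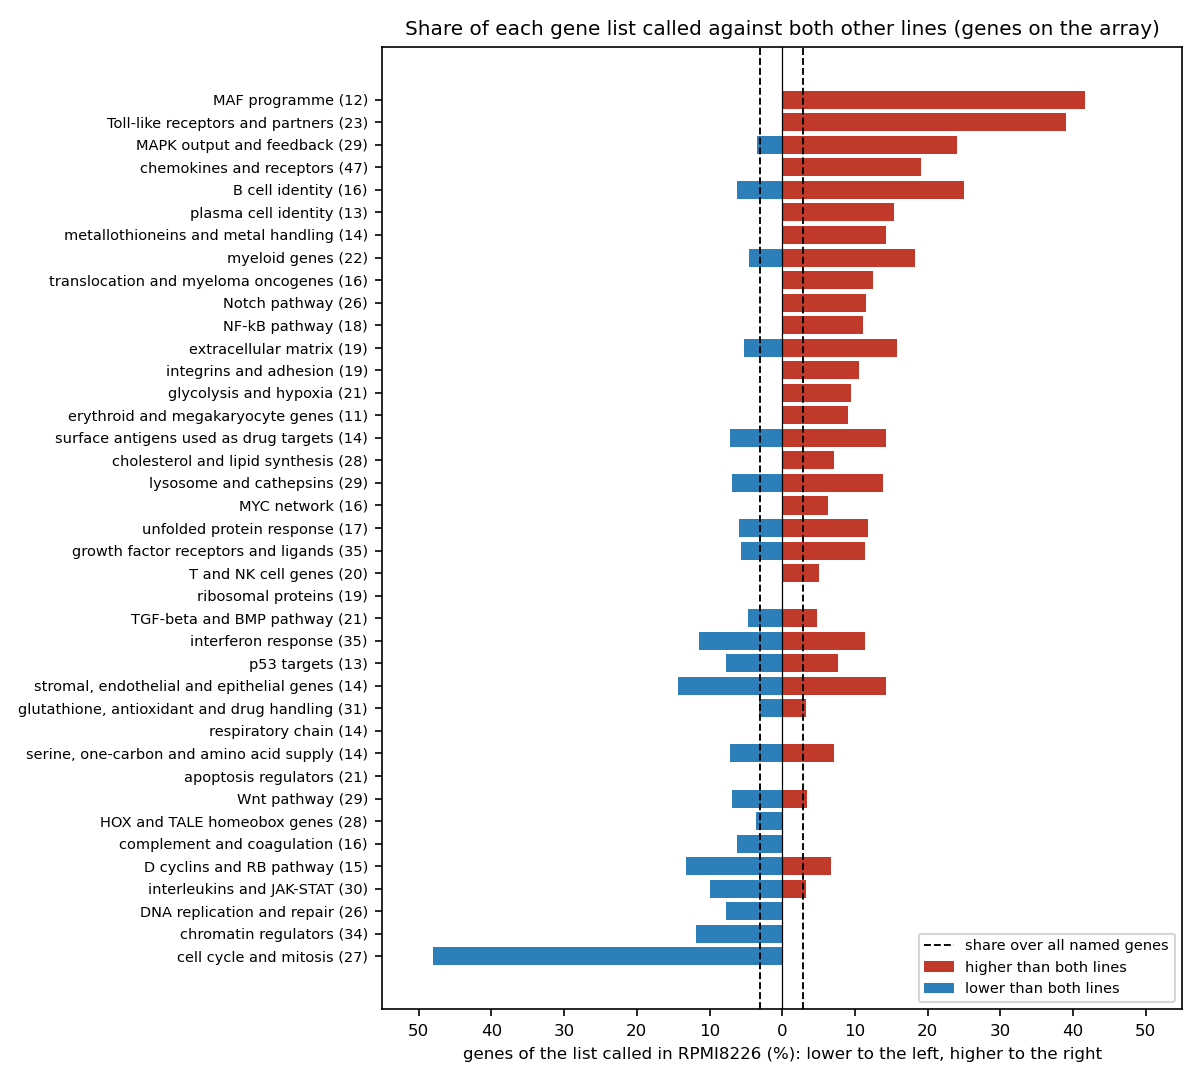
Share of each gene list called higher (right, red) or lower (left, blue) in RPMI8226 than in both other lines, in percent of the list's genes on the array (number in brackets), for lists with at least 10 such genes. Dashed lines mark the share over all 14884 genes, 2.85% higher and 3.09% lower. The bar for cell cycle and mitosis reaches 48.1% to the left, and that for Toll-like receptors and partners 39.1% to the right.

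Chemokines and their receptors were higher in RPMI8226 in 9 of 47 genes and lower in 0, while the list's median differences were 0.083 to KMS11 and 0.114 to U266. The higher genes were the ligands CXCL10, CXCL8, CCL2, CXCL9, CCL1, CXCL16 and CXCL12 and the receptors CX3CR1 and CCR1. CXCL8, which attracts neutrophils, stood at 8.22 and 8.04 in RPMI8226 against 2.12 to 2.35 in the 4 other arrays. CCL2, which attracts monocytes, stood at 7.40 and 7.81 against 2.02 to 2.72. CCL1, a ligand of CCR8, stood at 9.0 and 9.02 in RPMI8226, at 5.38 and 5.35 in U266 and at 3.49 and 3.24 in KMS11, so that the other lines differed from each other too.

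CXCL9 and CXCL11 share the receptor CXCR3 with CXCL10 and lie beside it on chromosome 4, but only CXCL9 joined it. CXCL9 stood at 6.75 and 6.66 in RPMI8226 against 1.90 to 2.54 elsewhere, a 20.2-fold difference to the nearer line. CXCL11 stood at 3.04 and 3.27 in RPMI8226, 3.12 and 3.06 in KMS11 and 2.83 and 2.97 in U266, and the interval of its difference to KMS11 was 0.06 ± 0.28. CX3CR1, the receptor for fractalkine, stood at 7.32 and 8.06 against 3.17 to 3.66, with the mimic array of RPMI8226 the higher. CCR1, a receptor for inflammatory CC chemokines that takes part in osteoclast formation, stood at 8.27 and 8.30 against 4.84 and 4.90 in KMS11 and 6.87 and 7.01 in U266. With KMS11 and U266 pooled as 1 group, whose spread then holds the difference between these lines, CCR1 was no longer called.

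The promoters of 3 of the higher chemokine genes are shown, picked because they held a match to a site sought. Interferon-regulated factors and NF-kB are known to act there. Of the 9 higher genes, 6 had a single promoter in the RefSeq table, given as the 250 bases before the start site in GRCh38.p14, and both strands were searched. The letters sought were GAAA followed by NN and GAAA for the interferon-stimulated response element (ISRE), GGAATTTCC for a kappa-B site and TGANTCA for an AP-1 site, and matches are in capitals. CXCL10 is at chr4:76023498-76023747 on the minus strand, CXCL9 at chr4:76007510-76007759 on the minus strand and CXCL8 at chr4:73740319-73740568 on the plus strand.
CXCL10 promoter: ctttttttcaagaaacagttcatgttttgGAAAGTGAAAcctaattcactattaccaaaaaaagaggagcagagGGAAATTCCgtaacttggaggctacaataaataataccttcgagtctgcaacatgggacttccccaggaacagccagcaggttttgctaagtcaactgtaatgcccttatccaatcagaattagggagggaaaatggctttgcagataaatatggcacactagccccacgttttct
CXCL9 promoter: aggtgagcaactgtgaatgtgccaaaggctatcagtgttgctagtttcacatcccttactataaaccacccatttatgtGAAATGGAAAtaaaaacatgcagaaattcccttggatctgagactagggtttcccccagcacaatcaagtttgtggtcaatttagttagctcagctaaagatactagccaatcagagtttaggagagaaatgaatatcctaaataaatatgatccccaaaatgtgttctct
CXCL8 promoter: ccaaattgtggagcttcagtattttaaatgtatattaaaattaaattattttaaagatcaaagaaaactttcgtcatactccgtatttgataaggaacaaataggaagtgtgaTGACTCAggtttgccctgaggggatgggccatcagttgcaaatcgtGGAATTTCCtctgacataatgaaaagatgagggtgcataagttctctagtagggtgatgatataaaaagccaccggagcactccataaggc
An ISRE match began at -221 from the start site in CXCL10 and at -171 in CXCL9. A kappa-B match began at -176 in CXCL10 and at -91 in CXCL8, where an AP-1 match also began at -137. Those of the 6 promoters that are not shown held no ISRE, kappa-B or AP-1 match. Of 22114 promoters of this length, 3.21% held the ISRE letters, 0.443% the kappa-B letters and 6.86% the AP-1 letters. Of all genes higher in RPMI8226, 231 had a promoter in the table. Of these, 2.6% held an ISRE match, 1.73% a kappa-B match and 4.33% an AP-1 match. The kappa-B share stands for 4 promoters, with CXCL10 and CXCL8 among them. A match is a description of the letters and not evidence of binding.

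Toll-like receptors sense microbial products on leukocytes and signal through adaptors and IRAK kinases, and B cells use TLR9 to sense DNA. RPMI8226 was higher than both lines in 9 of 23 genes of this group and lower in 0, with median differences over the list of 0.414 to KMS11 and 0.475 to U266. The receptors TLR1, TLR4, TLR6 and TLR9 were higher, as were the accessory proteins LY86 and LY96, the trafficking chaperone UNC93B1, the kinase IRAK2 and the transcription factor IRF8. TLR6 stood at 6.78 and 6.31 in RPMI8226 against 2.63 to 2.91 in the 4 other arrays, or 12.6-fold above the nearer line. TLR1, its neighbour on chromosome 4 and a fellow partner of TLR2, stood at 6.10 and 6.27 against 3.16 and 2.99 in KMS11 and 4.09 and 3.77 in U266. TLR2 itself was low throughout, at 3.83 and 3.57 in RPMI8226 and 3.21 to 3.37 elsewhere.

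TLR9 stood at 7.42 and 7.29 against 5.01 to 5.37, and UNC93B1, which carries TLR9 to endosomes, at 8.07 and 7.87 against 5.70 to 6.23. IRAK2 stood at 7.14 and 7.19 against 4.43 and 4.44 in KMS11 and 5.69 and 5.75 in U266. TLR4, the receptor for lipopolysaccharide, stood at 5.33 and 4.76 in RPMI8226 and up to 4.22 elsewhere, and its difference to KMS11 was 1.09 ± 0.59. Its call was lost without the RPMI8226 control array (0.674) or the KMS11 control array (0.69), and in the pooled fit, where IRAK2 lost its call too. CD180, the partner of LY86, stood at 3.13 and 2.87 in RPMI8226, 2.76 and 2.66 in KMS11, and 10.02 and 10.09 in U266. CD14, the coreceptor of TLR4, stood at 2.66 and 2.83 in RPMI8226 and 2.38 to 2.81 elsewhere. High LY86 set RPMI8226 apart from both lines, high CD180 set U266 apart, and KMS11 was low in both genes.

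The output of the RAS and MAPK cascade can be followed through ETS factors, dual-specificity phosphatases and Sprouty proteins that the cascade induces. RPMI8226 was higher in 7 of 29 such genes and lower in 1, with medians of 0.396 to KMS11 and 0.289 to U266. ETV1, an ETS factor, stood at 7.44 and 7.30 in RPMI8226 against 4.77 to 5.30 elsewhere, and ETV5 at 6.64 and 6.61 against 4.70 to 5.51. DUSP6, a phosphatase that dampens ERK, stood at 9.02 and 9.08 against 7.77 and 7.62 in KMS11 and 5.99 and 5.99 in U266. SPRY4, FOSL1, DUSP2 and IER3 were the other higher genes, 2.53-fold to 4.67-fold above the nearer line, of which IER3 was not called when a gene's probe sets were averaged (0.398). In the pooled fit DUSP6 and ETV5 were not called.

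JUN, a subunit of AP-1, was the exception, at 5.10 and 5.04 in RPMI8226 against 8.37 and 8.32 in KMS11 and 6.82 and 6.73 in U266. It was not called with the other lines pooled. EGR1, an immediate early factor, was as high in U266 (8.95 and 8.90) as in RPMI8226 (8.51 and 8.56) and low in KMS11 (3.76 and 3.87). DUSP5, another phosphatase of ERK, stood at 7.65 and 7.69 in RPMI8226 and was highest in KMS11, at 8.66 and 8.60.

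**Figure D4:**
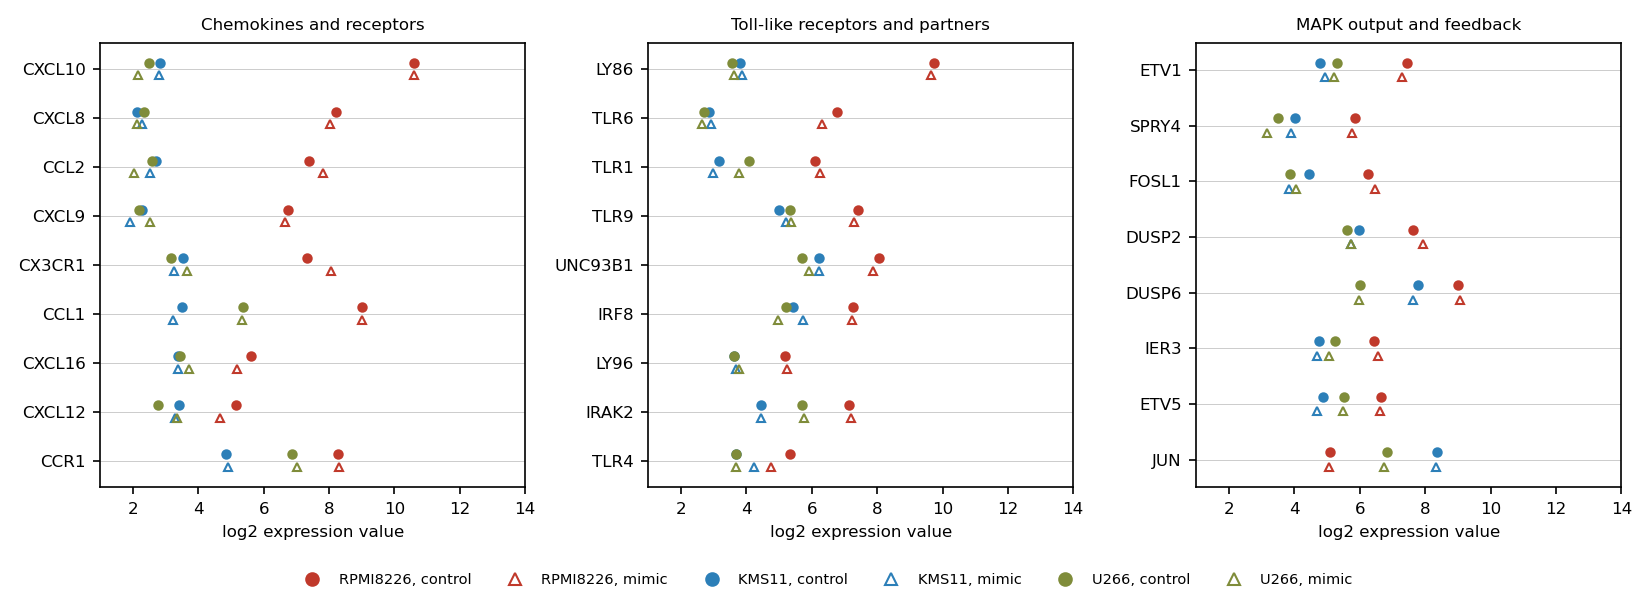
Log2 expression values in the 6 arrays for the called genes of the lists of chemokines and receptors (9 genes), Toll-like receptors and partners (9) and MAPK output and feedback (8), by line (colour) and treatment (filled circle, control; open triangle, mimic). RPMI8226 lies to the right of all other points in every row but JUN, where it stood at 5.10 and 5.04 and lies to the left. CCL1, CCR1 and DUSP6 also show KMS11 and U266 apart from each other.

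MAF was 3.09-fold above KMS11, which carries its own MAF rearrangement, with a difference of 1.63 ± 0.34, and the difference to U266 was 5.80 ± 0.34. Of 12 genes listed as its programme, 5 were higher in RPMI8226 than in both lines and 0 lower: MAF, CX3CR1, CCR1, SPP1 and TLR4, the last a member that the list shares with the Toll-like receptors. SPP1, encoding the secreted protein osteopontin, stood at 5.54 and 5.42 against 3.01 to 3.35 in the other arrays. CCND2, the cyclin D2 gene known as a direct target of MAF, stood at 10.40 and 10.36, with 9.42 and 9.35 in KMS11 and 8.58 and 8.44 in U266, and its difference to KMS11 of 0.99 ± 0.24 missed the 2-fold limit. DEPTOR, an inhibitor of mTOR, was as high in KMS11 (8.95 and 8.77) as in RPMI8226 (8.65 and 8.62). With KMS11 and U266 pooled, 2 of the 5 calls were left, and MAF lost its call at a pooled difference of 3.71. MYC, a growth-promoting transcription factor gene, showed the same shape, 3.02-fold above KMS11 and with a difference of 6.11 ± 0.38 to U266, and it also lost its call in the pooled fit.

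Of 13 genes of plasma cell identity, 2 were higher than in both lines and 0 lower. Against KMS11 alone 3 were higher and 0 lower, and against U266 alone 4 were higher and 2 lower. SLAMF7 was one of the latter, with a difference of -3.92 ± 0.54 to U266, but its difference to KMS11 was 0.19 and was not called. CD38 was higher than in both lines, and so was MZB1, a chaperone of antibody assembly, at 10.03 and 9.96 in RPMI8226, 7.92 and 8.06 in KMS11 and 6.18 and 6.11 in U266. With the other lines pooled, CD38 kept its call and MZB1 did not. IRF4 differed from KMS11 by -0.32 ± 0.26 and from U266 by 0.21 ± 0.26. SDC1, encoding the plasma cell antigen CD138, placed RPMI8226 between the other lines, at 7.30 and 7.16 against 5.52 and 5.72 in KMS11 and 9.49 and 9.48 in U266.

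Of 16 B cell genes, 4 were higher and 1 lower. The higher ones BLNK, BTK and BLK encode an adaptor and kinases of B cell receptor signalling. BLNK stood at 7.11 and 7.08 against 3.16 to 3.43 in the 4 other arrays. BTK stood at 7.26 and 7.47 against 3.79 and 3.90 in KMS11 and 5.44 and 5.44 in U266, and was not called in the pooled fit. BLK stood at 6.61 and 6.32 against 4.49 to 4.96. FCRLA, an intracellular Fc receptor-like protein, was the last, at 5.85 and 5.11 against 3.92 to 4.21, and its difference to the nearer line fell to 0.945 and lost its call without the RPMI8226 control array. The factors that head the mature B cell programme did not join them: PAX5 stood at 4.04 and 4.10 in RPMI8226 and 3.95 to 4.18 elsewhere, and EBF1 at 2.40 and 2.55 against 2.27 to 2.61.

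Surface antigens used as drug targets had 2 of 14 genes higher, CD38 and ICAM1, and 1 lower, LY9. ICAM1, an adhesion receptor for leukocyte integrins, stood at 10.22 and 10.22 against 7.84 and 7.84 in KMS11 and 9.04 and 9.05 in U266, and it was not called in the pooled fit. LY9, a receptor of the SLAM family also called CD229, stood at 4.01 and 3.82 against 6.69 to 6.99. Its relative CD48 was likewise lowest in RPMI8226, at 6.04 and 6.01, but its difference to KMS11 was -0.81 ± 0.24, short of the limit. CD70, a ligand of the TNF family, stood at 8.31 and 8.33 in RPMI8226, between KMS11 (6.31 and 6.22) and U266 (9.48 and 9.39).

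Myeloid genes were higher in 4 of 22 members, LTF, PLEK, LY86 and CD68, and lower in 1, PRTN3. CD68, a glycoprotein of lysosomes and macrophages, stood at 8.35 and 8.02 against 4.46 and 4.49 in KMS11 and 5.14 and 5.34 in U266. The defining markers of myeloid cells were low in RPMI8226, with LYZ, the lysozyme gene, at 2.59 and 2.37, MPO, the neutrophil peroxidase gene, at 3.39 and 3.27 and CD14 at 2.66 and 2.83. Over the 9 myeloid markers the mean level was 3.55 and 3.48 in RPMI8226, 3.33 and 3.37 in KMS11 and 3.29 and 3.26 in U266. PRTN3, encoding proteinase 3 of neutrophil granules, was highest in KMS11, at 8.0 and 8.02, and its call against U266 was lost without the U266 control array, at a difference of -0.997. It was not called in the pooled fit.

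Interferon-response genes split into both directions. Of 35 genes on the array, 4 were higher (CXCL10, CXCL9, IFITM2 and GBP4) and 4 lower (SAMD9L, HERC5, IFIT3 and SAMD9), and the medians were -0.246 to KMS11 and -0.784 to U266. IFITM2, a membrane protein that restricts virus entry, stood at 7.36 and 7.90 in RPMI8226, 4.62 and 4.21 in KMS11, and 4.86 and 3.85 in U266. Its relative IFITM1 stood at 5.68 and 5.88 in RPMI8226, 5.29 and 5.68 in KMS11 and 6.99 and 6.38 in U266. Probe sets of such similar genes can share signal, so the IFITM2 value is uncertain to that extent. GBP4, a guanylate-binding GTPase, stood at 5.28 and 5.38 against 2.36 to 3.53 elsewhere.

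On the lower side SAMD9L, a neighbour and relative of the antiviral gene SAMD9, stood at 6.69 and 6.76 in RPMI8226, 9.80 and 9.65 in KMS11 and 9.20 and 9.01 in U266. SAMD9 stood at 6.20 and 6.26 against 7.87 to 8.08. HERC5, the ligase that attaches ISG15 to proteins, stood at 5.03 and 5.33 against 7.17 to 7.65. IFIT3 stood at 3.09 and 2.84 in RPMI8226, 4.89 and 5.04 in KMS11 and 7.12 and 6.79 in U266, and was not called in the pooled fit. Against U266 alone, 13 genes of the list were lower and 6 higher, where 7.77% of all genes were lower and 6.54% higher. Against KMS11 alone, 4 were lower and 5 higher, where 7.77% of all genes were lower and 5.16% higher. The HERC5 promoter, at chr4:88456869-88457118 on the plus strand, is shown beside the chemokine promoters because it holds ISRE letters and yet the gene was low.
HERC5 promoter: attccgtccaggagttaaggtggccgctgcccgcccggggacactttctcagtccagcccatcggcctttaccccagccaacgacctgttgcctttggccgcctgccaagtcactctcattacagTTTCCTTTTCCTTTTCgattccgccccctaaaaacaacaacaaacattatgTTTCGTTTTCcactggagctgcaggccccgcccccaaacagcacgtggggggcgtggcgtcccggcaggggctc
The ISRE letters lie here on the opposite strand and begin at -125, -119 and -74, the first and the second overlapping. Of the 3 lower interferon genes with a promoter in the table, HERC5 and SAMD9 held an ISRE match, and of the 3 higher genes with one, CXCL10 and CXCL9 did.

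Interleukin and JAK-STAT genes were lower in 3 of 30 members and higher in 1. STAT3, the transcription factor through which interleukin-6 sustains myeloma cells, stood at 7.75 and 8.0 in RPMI8226 against 9.52 and 9.40 in KMS11 and 9.49 and 9.34 in U266 (adjusted p = 0.000245 against KMS11 in limma). JAK2, one of the kinases that activate it, stood at 4.06 and 3.68 against 4.81 to 5.68 elsewhere. STAT4 stood at 3.68 and 3.29 against 4.94 and 4.58 in KMS11 and 8.03 and 7.79 in U266. In the pooled fit STAT3 alone kept its call among these 3. The higher gene was IL21R, the receptor for interleukin-21, which lost its call without the KMS11 mimic array (0.964) or the U266 control array (0.942).

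Matrix genes included FN1, second among the protein-coding genes by its gap, and were higher in 3 of 19 members. TIMP1, an inhibitor of matrix metalloproteinases, stood at 8.01 and 8.06 against 3.92 and 4.38 in KMS11 and 5.90 and 6.07 in U266, and SPP1 was the third. TIMP1 was not called in the pooled fit. SRGN, encoding the proteoglycan core of secretory granules, was the 1 lower gene, at 9.94 and 10.02 against 11.42 to 11.56. EPCAM, an epithelial adhesion molecule, stood at 8.73 and 8.95 in RPMI8226, 6.98 and 7.13 in KMS11 and 4.66 and 4.93 in U266, and it too was called only with the lines apart. KRT18, an epithelial keratin, stood at 9.74 and 9.55 against 7.48 to 7.78. KRT18 lies on chromosome 12, but the number of its probe set is near that of MANF on chromosome 3. It is far from that of ESPL1 on chromosome 12, so which locus the KRT18 value reads is uncertain. VIM, encoding the intermediate filament protein vimentin, was lower instead, at 6.13 and 6.20 in RPMI8226 against 9.41 and 9.42 in KMS11 and 9.62 and 9.60 in U266, 9.53-fold below the nearer line. The list that holds VIM also named ESPL1 as lower, a separase of mitosis that is no stromal or epithelial gene and whose call was lost without the RPMI8226 control array (-0.969) or the U266 control array (-0.988).

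Genes of lysosomes and cathepsins were higher in 4 of 29 members, CD68, CTSS, LGMN and LAPTM5, and lower in 2, LAPTM4B and CTSL. CTSS, the cathepsin that trims the invariant chain for antigen presentation, stood at 9.44 and 9.49 against 6.75 and 7.11 in KMS11 and 4.71 and 4.56 in U266. CTSL, a related cathepsin, stood at 3.89 and 3.71 against 6.42 and 6.38 in KMS11 and 7.06 and 6.82 in U266. LAPTM5, of hematopoietic cells, stood at 11.94 and 11.97 in RPMI8226 against 10.54 and 10.50 in KMS11 and 7.02 and 6.99 in U266. Its relative LAPTM4B was below both lines, at 2.43 and 3.75 in RPMI8226. The cathepsins and the LAPTM proteins thus each had a member higher and a member lower in RPMI8226. CTSS and LAPTM5 were not called in the pooled fit.

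Many genes of mitosis were lower in RPMI8226, and the list had median differences of -0.949 to KMS11 and -1.216 to U266, where all named genes had 0.003 and 0.031. Of 27 genes, 13 were called lower than both lines, and the count was 11 to 14 when each array was left out in turn. The differences were of moderate size: 1 gene, MKI67, was 4-fold lower than both lines. MKI67, which encodes the proliferation antigen Ki-67, stood at 8.40 and 8.29 in RPMI8226, 10.43 and 10.30 in KMS11 and 10.59 and 10.55 in U266. MYBL2, a transcription factor that activates mitotic genes, stood at 8.22 and 8.33 against 10.68 and 10.72 in KMS11 and 10.25 and 10.28 in U266. KIF20A, a kinesin of the dividing spindle, stood at 5.16 and 5.80 in RPMI8226 against 7.52 and 7.41 in KMS11 and 8.59 and 8.48 in U266. In a bulk RNA sample, fewer cells in mitosis and less of these transcripts per cell cannot be told apart, and growth rate was not measured here.

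The other lower genes encode the mitotic kinase CDK1 and its cyclins CCNB1, CCNB2 and CCNA2, the phosphatase CDC25C, the kinases AURKA, PLK1 and TTK, the kinesin KIF11 and the topoisomerase TOP2A. CDK1 lost its call without the RPMI8226 control array (-0.993). CCNB2 lost it without that array (-0.869), without the U266 control array (-0.959) and after quantile normalization (-0.97). Among the others, CCNB1 stood at 6.78 and 6.90 against 8.41 to 8.78, and AURKA at 5.59 and 5.74 against 7.07 to 7.46. Other members did not follow. AURKB, the kinase of the chromosomal passenger complex, was highest in RPMI8226, at 8.43 and 8.55 against 7.86 to 8.0, and CDC25A, a phosphatase that acts at the start of replication, stood at 7.43 and 7.82 against 6.53 to 6.84. The difference of FOXM1, an activator of mitotic genes, was -0.76 ± 0.26 to KMS11 and -0.07 ± 0.26 to U266. The list of replication and repair genes had 2 of 26 members lower and medians of -0.097 to KMS11 and 0.025 to U266.

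**Figure D5:**
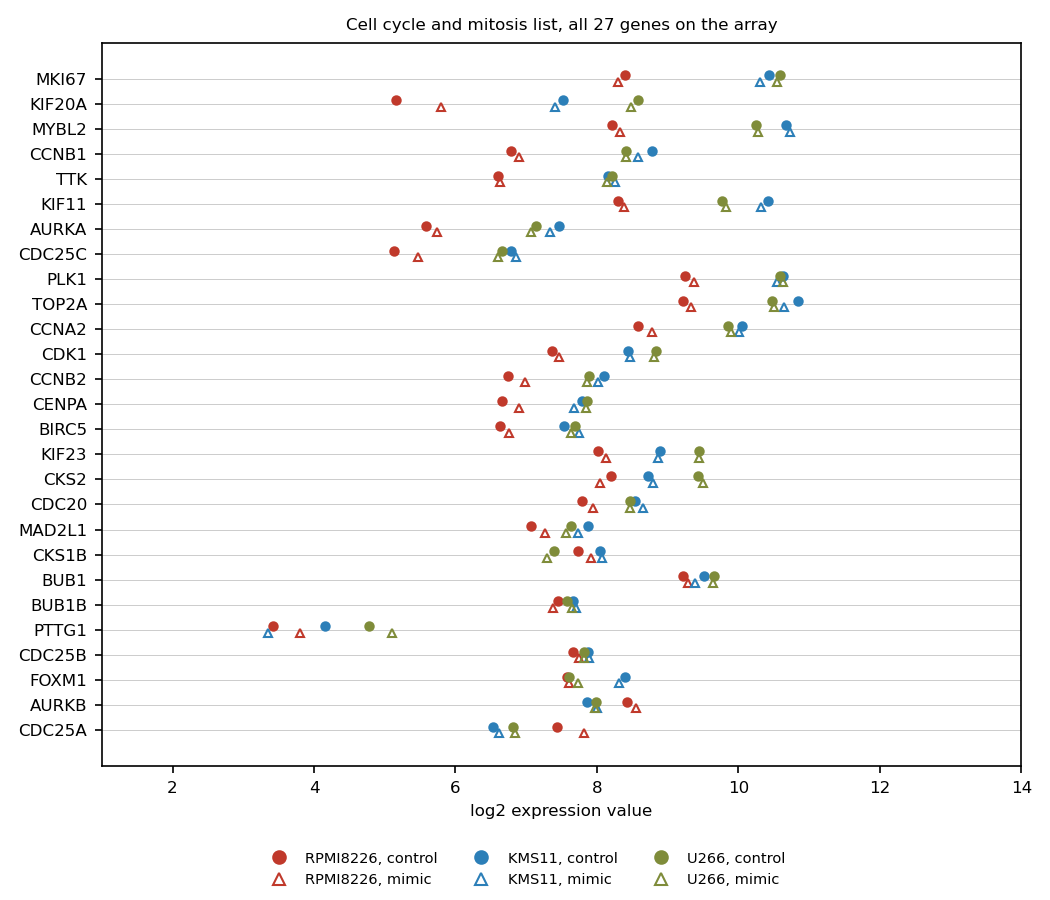
Log2 expression values in the 6 arrays for all 27 genes of the cell cycle and mitosis list, ordered by the difference of RPMI8226 to the nearer line, by line (colour) and treatment (filled circle, control; open triangle, mimic). From MKI67 down to CCNB2 the RPMI8226 points lie left of all others and the fitted differences pass 2-fold, as for MKI67 at 8.40 and 8.29 against 10.30 to 10.59. At the bottom AURKB and CDC25A lie to the right.

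Mitotic promoters are known for CCAAT boxes and the cell cycle homology region (CHR, letters TTTGAA), and CCNB2 is shown as the textbook case. Its 250 bases lie at chr15:59104896-59105145 on the plus strand in GRCh38.p14.
CCNB2 promoter: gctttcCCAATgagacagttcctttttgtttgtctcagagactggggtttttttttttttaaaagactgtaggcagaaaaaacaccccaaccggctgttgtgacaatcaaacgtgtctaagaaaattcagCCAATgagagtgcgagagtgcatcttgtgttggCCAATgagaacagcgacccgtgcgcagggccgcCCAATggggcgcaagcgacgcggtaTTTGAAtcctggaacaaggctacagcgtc
CCAAT matches began at -244, -120, -87 and -54 and a CHR match at -29. Of the 13 lower genes, 9 had a promoter in the RefSeq table, and 8 of these held CCAAT and 5 held TTTGAA on either strand. Of 22114 promoters, 33.4% held CCAAT and 14% TTTGAA, and of the 269 promoters among all genes lower in RPMI8226, 39.8% and 13.8% did. These are properties known for mitotic genes at large and say nothing about the line.

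Upstream of mitosis, both E-type cyclins were lower. CCNE2 stood at 6.25 and 6.28 in RPMI8226 against 8.51 to 8.82 in the 4 other arrays, and CCNE1 at 5.81 and 5.69 against 8.01 and 8.03 in KMS11 and 7.15 and 7.10 in U266. Cyclin D1, by contrast, placed RPMI8226 between the lines, with CCND1 at 7.22 and 7.33 against 6.13 and 6.10 in KMS11 and 9.98 and 10.00 in U266. RB1, the retinoblastoma gene that restrains entry into S phase, was highest in RPMI8226, at 9.38 and 9.55 against 8.44 and 8.42 in KMS11 and 5.98 and 5.95 in U266. Its call against KMS11 was marginal, with a difference of 1.04 ± 0.26, and was lost without the RPMI8226 mimic array (0.937) or the KMS11 mimic array (0.994), and with array medians set to a common value (0.99). CCNE1 and RB1 were not called in the pooled fit.

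Chromatin regulators were lower in 4 of 34 genes and higher in 0. KDM6A, the X-linked demethylase of histone H3 lysine 27, stood at 3.04 and 3.58 in RPMI8226 against 8.02 and 7.96 in KMS11 and 6.95 and 6.72 in U266, or 11.5-fold below the nearer line. Its relative KDM6B stood at 7.41 and 7.49 in RPMI8226, with 7.0 and 6.93 in KMS11 and 5.02 and 4.86 in U266. EZH2, the methyltransferase that places the mark KDM6A removes, was lower than in KMS11 (8.46 and 8.24 against 10.00 and 9.95), but its difference to U266 was -0.65 ± 0.25. TET2, which oxidises methylcytosine, stood at 6.07 and 6.23 against 7.30 to 7.64. IKZF1 and IKZF3, lymphoid factors degraded by lenalidomide, differed from the nearer line by 2.08-fold and 2.04-fold, and IKZF1 lost its call without the RPMI8226 control array (-0.957) or the KMS11 control array (-0.993).

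Of 35 growth factor receptors and ligands listed, 4 were higher (11.4%) and 2 lower (5.71%). Of 29 Wnt genes 1 was higher (3.45%) and 2 lower (6.9%). All named genes had 2.85% higher and 3.09% lower, and the Wnt counts are too small to set that list apart. FGF2, not in that list but among the lowest genes by its gap, is a fibroblast growth factor made by myeloma and stromal cells, and it stood at 3.90 and 4.23 in RPMI8226 against 8.79 and 8.86 in KMS11 and 8.16 and 8.21 in U266. INSR, the insulin receptor gene, stood at 6.46 and 6.49 against 8.64 to 8.80, and NRP2, a coreceptor for semaphorins and VEGF, at 5.86 and 5.92 against 2.38 to 2.88. NOTCH1 stood at 7.36 and 7.27 against 4.67 to 4.89, and NRARP, which Notch signalling induces, at 5.06 and 5.09 against 3.08 to 3.29. With MAML2, a Notch coactivator that lost its call when a gene's probe sets were averaged (0.901), 3 of 26 Notch genes were higher and 0 lower. FZD6, a Wnt receptor, stood at 5.26 and 5.14 against 7.21 to 7.76, and BCL9, a coactivator of beta-catenin, at 7.05 and 7.05 against 8.85 to 9.62. LTBP1, which holds latent TGF-beta in the matrix, stood at 3.31 and 3.42 against 6.72 and 6.90 in KMS11 and 9.43 and 9.45 in U266, and was not called in the pooled fit.

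Among NF-kB genes 2 of 18 were higher and 0 lower. TRAF1, an adaptor that NF-kB itself induces, stood at 8.29 and 8.06 against 5.36 and 4.95 in KMS11 and 5.93 and 5.48 in U266. TRAF5 was the other, and it lost its call without the RPMI8226 mimic array (0.963) and in the pooled fit. In the unfolded protein response, ERN1, the sensor IRE1 that splices the message of XBP1, stood at 10.88 and 10.84 in RPMI8226 against 8.74 and 8.83 in KMS11 and 7.36 and 7.28 in U266, while XBP1 differed from KMS11 by -0.31 ± 0.23. SEL1L, a subunit of the degradation complex of the endoplasmic reticulum, was lower, at 8.47 and 8.57 against 9.77 to 10.36. ERN1 was not called in the pooled fit.

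In metabolism ASS1, the enzyme of arginine synthesis whose loss makes tumours depend on arginine supply, stood at 11.20 and 11.18 in RPMI8226 against 6.14 and 6.32 in KMS11 and 8.07 and 7.98 in U266, 9.0-fold above the nearer line. SREBF1, the regulator of fatty acid synthesis, stood at 8.37 and 8.36 against 6.66 and 6.54 in KMS11 and 4.42 and 4.41 in U266, and was not called in the pooled fit. Cholesterol and lipid genes were higher than KMS11 in 10 of 28 members and lower in 2, where 5.16% of all genes were higher and 7.77% lower. Against U266 2 members were higher and 4 lower, and 2 were higher than in both lines. GPX7 stood at 8.73 and 8.67 against 3.19 to 3.56, and PRDX1, an abundant peroxiredoxin, at 9.04 and 8.95 against 10.09 to 10.35.

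Outside the protein-coding genes, 33 of 1398 long non-coding RNA genes were higher and 5 lower. Of 1072 microRNA genes, 14 were higher and 4 lower. Both groups lay below the shares over all named genes, 2.85% higher and 3.09% lower, in each direction. Among the non-coding genes the widest gap above both lines was that of LOC650226, at 10.14 and 9.99 against 2.90 to 3.43. NBEAP1 stood at 7.50 and 7.77 against 1.74 to 1.93, and CXADRP2 at 8.20 and 7.83 against 2.43 to 2.92. Such pseudogenes resemble their parent genes, so their signal is uncertain. NBEA, the parent of NBEAP1, stood at 3.78 and 4.03 in RPMI8226 and 4.61 to 4.86 elsewhere. AFAP1-AS1, an antisense RNA of AFAP1, stood at 10.29 and 10.45 against 5.92 and 6.06 in KMS11 and 4.52 and 4.35 in U266. Below both lines were LGALS17A, SCARNA5, RPL23AP32, LINC02363 and MIR4427, of which LGALS17A was not called in the pooled fit.

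A microRNA silences messages that pair with its seed, bases 2 to 8. For each of these genes the array reads a precursor or a host transcript, which of them is not given in the sources used here, and not the mature microRNA. MIR4427 was named by the width of its gap, and MIR221, MIR4500, MIR21 and MIR1204 were chosen after their values were seen. Mature sequences from RefSeq are shown for all of these but MIR1204, with the seed in capitals, because the seed decides which messages could pair.
hsa-miR-221-3p: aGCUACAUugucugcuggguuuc
hsa-miR-4500: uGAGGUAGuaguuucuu
hsa-miR-21-5p: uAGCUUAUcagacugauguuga
hsa-miR-4427: uCUGAAUAgagucugaagagu
The seed of miR-4500 is that of let-7, shared by 14 mature sequences in the table, and the seeds of the other microRNAs shown here differ from it and from each other. MIR4500 stood at 5.61 and 5.31 in RPMI8226 against 2.36 to 2.86 in the other arrays, 6.25-fold above the nearer line. MIR221, of a family known to repress the cell cycle inhibitor p27, stood at 5.44 and 4.82 in RPMI8226, 3.38 and 2.82 in KMS11 and 2.58 and 2.59 in U266. MIR222, which lies beside it on chromosome X and has the same seed, stood at 3.10 and 2.86 against 2.21 to 2.80, and its difference to KMS11 was 0.36 ± 0.37. MIR21, an oncogenic microRNA gene that STAT3 is known to induce, stood at 5.82 and 5.95 against 7.88 and 7.37 in KMS11 and 7.29 and 7.28 in U266. MIR4427 stood at 1.70 and 1.93 against 4.09 to 4.55. MIR1204, a microRNA gene of the PVT1 locus, stood at 8.86 and 8.95 in RPMI8226 against 4.95 and 4.46 in KMS11 and 5.52 and 5.20 in U266.

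The share of called genes ranged over the chromosomes. The lower share was widest on chromosome 4, with 38 of 612 named genes (6.21%), and on chromosome 15, with 27 of 465 (5.81%). The higher share was widest on chromosome 18, with 14 of 232 genes (6.03%), but 10 genes there (4.31%) were lower. Over all named genes 2.85% were higher and 3.09% lower. Over protein-coding genes at or above the median level, those on chromosome 4 had a median difference of -0.586 to KMS11 and -0.148 to U266. In the same order, medians were -0.421 and -0.305 on chromosome 10, -0.031 and -0.391 on chromosome 15, and -0.255 and 0.298 on chromosome 18. Over all such genes they were -0.065 and -0.019. Gene copy number was not measured, and no test across chromosomes was made.

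In gene order, 5 runs of at least 3 neighbours among the named genes were called in 1 direction. FGF2, NUDT6 and AFG2A on chromosome 4 were lower, with NUDT6, which overlaps FGF2 in antisense, at 4.12 and 3.80 against 5.08 to 5.43 and AFG2A at 6.72 and 6.66 against 7.78 to 8.01. TTBK2, UBR1, TMEM62 and CCNDBP1 on chromosome 15 were lower, from 2.12-fold for UBR1 to 2.83-fold for TTBK2 below the nearer line. SH3BGRL2, ELOVL4 and the mitotic kinase gene TTK on chromosome 6 were lower too. On chromosome 19 the zinc finger genes ZNF257, ZNF676, ZNF729 and ZNF98 were higher. ZNF676 lost its call without the RPMI8226 control array (0.889) or the U266 mimic array (0.967), and ZNF98 without the RPMI8226 mimic array (0.962) or the KMS11 mimic array (0.906). GAS6, a ligand of the TAM receptor kinases, was higher on chromosome 13 together with GAS6-AS1 and GAS6-DT, at 6.80 and 6.87 against 3.80 to 4.58. Overlapping and antisense transcripts, and zinc finger genes of similar sequence, may share signal. UBR1, TMEM62, ELOVL4 and ZNF257 were not called in the pooled fit, nor was GAS6-AS1 when its probe sets were averaged (0.719).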

How the data were processed

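Per the labels, 3 myeloma lines gave 1 array each after scrambled control and after miR-10a mimic. The cell line label spells RPMI8226 as RPI8226, and the title was used. The design text also names IM-9, which was not analysed here. The authors deposited log2 expression values for 53617 probe sets, and the submitters' processing notes name Affymetrix Expression Console 1.3.0. The genome build and the background correction, normalization and summarization steps: not given in the sources used here.

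The platform annotation gave 1 symbol for 16098 probe sets, several for 0 and none for 37519. The RefSeq gene table of GRCh38.p14 held all 16098 identifiers, and 0 symbols were changed. These stood for 14884 genes. Where a gene had more than 1 probe set (779 genes), that of highest mean over the 6 arrays was kept. No filter on level was used. Differences were fitted in limma 3.58.1 (R 4.3.3) with line and treatment as terms, on 2 residual and 4.12 prior degrees of freedom, and P-values were two-sided and adjusted by Benjamini-Hochberg over all genes. The script was tested on simulated data.

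Named genes were the 15 protein-coding and 5 other genes with the widest gap at equal treatment in each direction, up to 4 called genes per list and direction, marker genes and textbook members of a list. Members and the 44 lists (1374 symbols) were chosen with earlier results of these data known. Alternatives covered level filters, variance trend, treatment term, normalization, probe set choice, fold thresholds, pooling of the other lines and leaving out each array. The number of arrays limits the precision. Y-linked genes and XIST were left out.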

Additional observations from a re-analysis of the deposited data

How the results depend on the processing

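With no treatment term, with a variance trend, after quantile normalization, with array medians set to a common value or with probe sets averaged, between 401 and 424 genes were higher and between 450 and 487 lower than both lines. Leaving out each array in turn gave 417 to 442 higher and 441 to 497 lower. Pooling KMS11 and U266 gave 367 and 410, and 691 of the 884 genes were still called. Restriction to genes at or above the 75th percentile of level, which tests fewer genes, gave 101 higher and 232 lower, with 786 differing from KMS11 and 791 from U266. At 1.5-fold the counts were 906 and 1019, with 3799 and 4061 against the single lines, and at 4-fold 131 and 108, with 505 and 631. Of the 167 called genes named or chosen by rule, 0 changed direction under these settings. That was largely fixed by the choice of called genes. A level filter, a fold threshold, a variance trend or the lack of a treatment term leaves the difference itself unchanged. When the lines were pooled, 37 of these genes lost their call. The treatment term makes the fit a paired one, with lines compared at equal treatment. Each line had 1 array for each treatment, so leaving the term out could change only the error of a difference. The counts without it, 424 and 460 as before, are therefore no check on the differences. With 1 array for each line and treatment, differences between cultures could not be separated from differences between lines, and without detection calls the low values are uncertain.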

Other observations

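Some probe sets without a gene symbol also set RPMI8226 apart, at shares below the 2.85% higher and 3.09% lower of named genes. Of 37519 such probe sets, 819 (2.18%) were higher than in both other lines and 463 (1.23%) lower, by the same rule with p-values adjusted over all 53617 probe sets in limma. The widest of these differences to the nearer line were 8.65 and -8.04 log2 units, wider on both sides than the fitted difference of any single gene named in the text to its nearer line. They are not described further because they have no name here.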
